A study of Mus musculus with 6 samples.

Results

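The genes described here encode the proteins of the mitochondrial ribosome. They were chosen by symbol, as protein-coding genes named Mrpl or Mrps followed by a number in the GENCODE annotation of GRCm38. The rule found 78 of the 49315 genes counted, 49 named for the large subunit (Mrpl) and 29 named for the small subunit (Mrps). The 78 genes lie on 17 chromosomes, with at most 11 on a single chromosome (chromosome 11). All 78 passed the filter on low counts. A further 5 processed pseudogenes with such symbols, among them Mrpl23-ps1 and Mrps36-ps1, were left out.

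RNA was sequenced in bulk from 6 libraries of sorted mouse bone marrow cells, 3 from WT C57BL/6 controls (CD45.2) and 3 from ING4-/- mice (CD45.2), which are deficient in the chromatin regulator ING4. Each genotype gave 1 library of long-term hematopoietic stem cells (LT-HSCs, LSK CD48-CD34-CD150+), 1 of short-term stem cells (ST-HSCs, LSK CD48-CD34+CD150+) and 1 of multipotent progenitors (MPPs, LSK CD48-CD34+CD150-), where LSK cells are the lineage-negative, Sca1-positive and cKit-positive fraction. Marrow of several mice was pooled per genotype, so the 3 populations stand in for replicates and a p-value measures the spread between populations, not between mice. The sample labels give no ages. Where 3 values stand together, they are in the order LT-HSC, ST-HSC, MPP.

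Total counts ran between 7839326 and 9363442 for WT and between 35596876 and 39192588 for ING4-/-. Ing4 itself had 247, 162 and 247 counts in WT and 0, 24 and 76 in ING4-/- (log2 fold change -4.49, SE 1.56, edgeR quasi-likelihood test, adjusted p = 0.0373). The receptor-gene density described below corresponded to 51.9% of the WT Ing4 counts, and after its subtraction Ing4 was not called (-4.22, SE 1.72, edgeR, adjusted p = 0.0875). Summed stem and progenitor markers stood at 1608 to 2873 CPM (read counts scaled to a common library size) in WT and 2521 to 4465 CPM in ING4-/-, with none of the 11 at 0 in every ING4-/- library. Erythroid markers summed to 34.5 to 53.4 CPM in WT and 108 to 230 CPM in ING4-/-, and granulocyte markers to 97.4 to 326 CPM and 368 to 663 CPM. T and NK cell markers summed to 88.6 to 179 CPM and 82.8 to 308 CPM. Of the erythroid, granulocyte, T and NK cell markers, Alas2 (erythroid) and Cd3e and Cd3g (T cell) were at 0 in all 3 ING4-/- libraries. The WT libraries also held 18.3 to 23 counts per kb of exon on olfactory and vomeronasal receptor genes, which blood cells are not known to use, against at most 0.0812 in ING4-/-. At that density per kb, such counts would make up 22.9 to 33.8% of each WT library. For the Mrp genes the same density corresponded to a median of 13.8% of their WT counts, from 2.02% for Mrpl42 to 137% for Mrpl53. The part that these differences play in the results below was not tested beyond the alternatives named.

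Mitochondria carry their own ribosome, the mitoribosome, which translates the few proteins of the mitochondrial genome, all of them subunits of the respiratory chain and ATP synthase. Its ribosomal RNAs come from that genome, whereas its proteins are encoded in the nucleus, made in the cytosol and imported. The small subunit binds the mRNA and decodes it, and the large subunit forms the peptide bond and holds the exit tunnel at the inner membrane. In blood stem cells mitochondrial activity is kept low and rises as progenitors form. Symbols do not match subunits throughout. Mrps30 and Mrps18a were named for the small subunit, yet their proteins sit in the large one, and the Mrps36 protein belongs to the oxoglutarate dehydrogenase complex rather than the mitoribosome.

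Promoter sequence is shown for 6 genes, 4 called higher in ING4-/- and 2 not, as the 120 bases before the transcription start in RefSeq (GRCm38.p6), 5′ to 3′ on the gene's own strand. Capitals mark the motif letters searched on both strands, CCGGAAG for ETS factors and GCGCATGC for NRF1. Mrpl34, Mrpl58, Mrpl22 and Mrps14 were called higher in ING4-/-, whereas Mrps22 and Mrps9 were not. The windows lie at chr8:71464806-71464925 (plus strand) for Mrpl34, chr11:115403632-115403751 (plus) for Mrpl58, chr11:58171544-58171663 (plus) for Mrpl22, chr1:160195095-160195214 (plus) for Mrps14, chr9:98601680-98601799 (minus) for Mrps22 and chr1:42851113-42851232 (plus) for Mrps9.
Mrpl34: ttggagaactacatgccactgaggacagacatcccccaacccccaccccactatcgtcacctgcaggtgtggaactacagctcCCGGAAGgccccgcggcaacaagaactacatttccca
Mrpl58: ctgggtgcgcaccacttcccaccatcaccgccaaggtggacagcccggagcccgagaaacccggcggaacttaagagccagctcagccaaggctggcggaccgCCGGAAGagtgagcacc
Mrpl22: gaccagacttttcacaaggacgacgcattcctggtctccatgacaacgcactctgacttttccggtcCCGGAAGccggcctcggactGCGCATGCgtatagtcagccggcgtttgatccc
Mrps14: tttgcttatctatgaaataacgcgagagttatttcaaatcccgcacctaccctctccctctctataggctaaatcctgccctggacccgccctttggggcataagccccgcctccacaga
Mrps22: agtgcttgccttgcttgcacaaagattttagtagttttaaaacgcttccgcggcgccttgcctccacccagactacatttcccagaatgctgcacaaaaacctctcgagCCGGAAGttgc
Mrps9: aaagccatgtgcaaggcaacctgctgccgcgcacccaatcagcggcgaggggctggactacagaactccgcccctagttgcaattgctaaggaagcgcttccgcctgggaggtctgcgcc

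In the windows shown, the ETS letters occur in Mrps22, which was not called, as well as in the called genes Mrpl34, Mrpl58 and Mrpl22, and neither motif occurs in Mrps14 or Mrps9. RefSeq windows of 250 bases before to 50 after the start were found for 69 of the 78 genes. In them the ETS letters CCGGAAG were found for 25 genes (36.2%), 14 of 43 large-subunit and 11 of 26 small-subunit ones, against 12.3% of all 16455 protein-coding windows and 21.3% of the 7252 whose gene had 10 counts or more in each library. The YY1 letters ATGGCGG were found for 13 genes (18.8%), against 5.57% of all windows and 9.82% of those of the expressed genes. NRF1 letters were found for 8 (11.6%, against 3.77% and 6.32%), 7 of them large-subunit genes. The E-box CACGTG was found for 5 (7.25%, against 8.11% and 11.1%). Of the 25 genes with the ETS letters 21 were called higher in ING4-/-, as were 31 of the 44 without them, at median log2 fold changes of 1.59 and 1.44. Among the 8 genes with NRF1 letters 5 were called, and among the 61 without them 47 were. A match is a run of letters and not a binding site, and the study measured no binding.

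The starts of the genes were compared with those of their neighbours. For 30 of the 78 genes (38.5%), 21 large-subunit and 9 small-subunit, another protein-coding gene starts within 1000 bases on the opposite strand, compared with 10.6% of all 21732 protein-coding genes and 18.0% of the 9013 with 10 counts or more in each library. The other 48 had no such neighbour, and for 17 of the 78 (21.8%) the neighbour's start lay upstream of the gene's own. Mrpl46 and Mrps11, on chromosome 7, are each other's neighbour, a large-subunit and a small-subunit gene that start in the same region. Mrpl46 had 307, 253 and 260 counts in WT and 1838, 3115 and 1648 in ING4-/-. Mrps11 had 290, 203 and 229 in WT and 1640, 2429 and 1499 in ING4-/-. Both were highest in the ING4-/- ST-HSC library, and their log2 fold changes were 1.27 (SE 0.36) and 1.21 (SE 0.35). Their exons overlap on opposite strands over 12.2% and 7.97% of exonic bases, and since the strand setting of the counting is not given, some reads may have been assigned to either.

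The first comparison asked whether the Mrp genes differ between ING4-/- and WT stem and progenitor cells. A gene was called when its adjusted p was under 0.05 and its log2 fold change exceeded 1 in size. By this rule 59 of the 78 (75.6%) were called higher in ING4-/- and 0 lower, where 7.98% of the 31001 genes tested were called higher and 56.7% lower. The calls came from both subunits, with 38 of 49 large-subunit genes (77.6%) and 21 of 29 small-subunit genes (72.4%) called. The median log2 fold change was 1.5 over all members, a fold of 2.82, with quartiles of 1.15 and 1.79, and 77 of 78 values were positive. All 3 ING4-/- libraries lay above all 3 WT libraries for 68 genes, compared with 12% of all genes tested and 35.9% of those with 10 counts or more in each library. Bulk RNA cannot tell more RNA per cell from more cells of a type that carries it.

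These values are relative to the other genes in the fit, and the fit itself is uneven. Over all genes tested the median log2 fold change was -6.85, with many genes counted in WT alone. Over the 9673 genes with 10 counts or more in each library it was 0.52 in the same fit. Fitted on those 9673 genes alone, where the median of all genes was 0.02, 77 of the Mrp genes were tested and their median was 0.98. Of them 30 (39.0%) were called higher and 0 lower, against 8.30% and 9.68% of all genes. All 30 were among the 59. With the receptor-gene density subtracted from every count, 24 of 77 were called higher, at a median of 0.93. Of all genes 5.64% were called higher and 38.5% lower in that fit, at a median of -0.91. All 24 were again among the 59. The median stayed positive in both, and 29 of the 59 genes were no longer called on the better-counted genes.

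**Figure D1:**
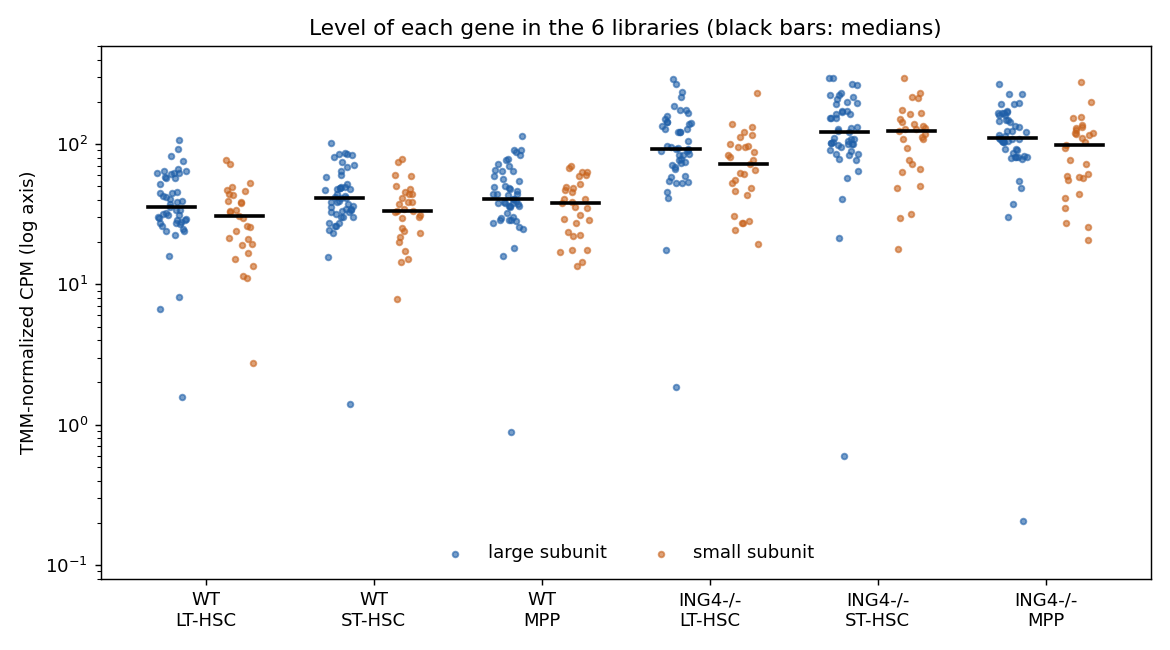
Level of each Mrp gene (points, TMM-normalized CPM on a log axis) in the 6 libraries, large-subunit genes in blue and small-subunit genes in orange, with black bars at the medians. Over all 78 genes the medians are 33.5, 38.5 and 39.9 CPM in WT and 88.6, 123 and 109 CPM in ING4-/-, and the lowest point in every library is Mrpl53.

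Together the 78 genes took 0.360%, 0.380% and 0.374% of the counts of WT, and 0.670%, 0.861% and 0.762% of those of the ING4-/- libraries. The plot of levels by library shows a step between genotypes in large-subunit and small-subunit genes alike. Per kb of exon, large-subunit genes averaged 22.8, 25.8 and 26.5 CPM in WT and 66.0, 86.3 and 75.8 CPM in ING4-/-. Small-subunit genes averaged 17.8, 19.6 and 20 CPM in WT and 44.3, 72.8 and 57.7 CPM in ING4-/-.

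As a share of the summed CPM per kb, the large subunit made up 68.4%, 69.1% and 69.1% in WT, and 71.6%, 66.7% and 69.0% in ING4-/-. The WT shares lay inside the range of the ING4-/- shares, so the groups overlapped. With Mrps30 and Mrps18a counted as large-subunit genes and Mrps36 left out, the shares were 69.7%, 70.7% and 70.9% in WT and 73.2%, 68.3% and 70.4% in ING4-/-. Assigned in this way, 40 of 51 large-subunit and 18 of 26 small-subunit genes were called higher. By symbol the median log2 fold changes were 1.47 for the large and 1.53 for the small subunit. In the fit on genes with 10 counts or more in each library they were 0.97 and 1.02, with 20 of 48 and 10 of 29 genes called. The subunits were not tested against each other, since genes are not replicates of a condition. In ING4-/- LT-HSCs the ratio to WT was the lower one for small-subunit genes (median log2 ratio 1.16, against 1.33 for the large subunit), in ST-HSCs the higher one (1.72 against 1.62) and in MPPs again the lower one (1.27 against 1.41), with 1 library per genotype and no test.

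**Figure D2:**
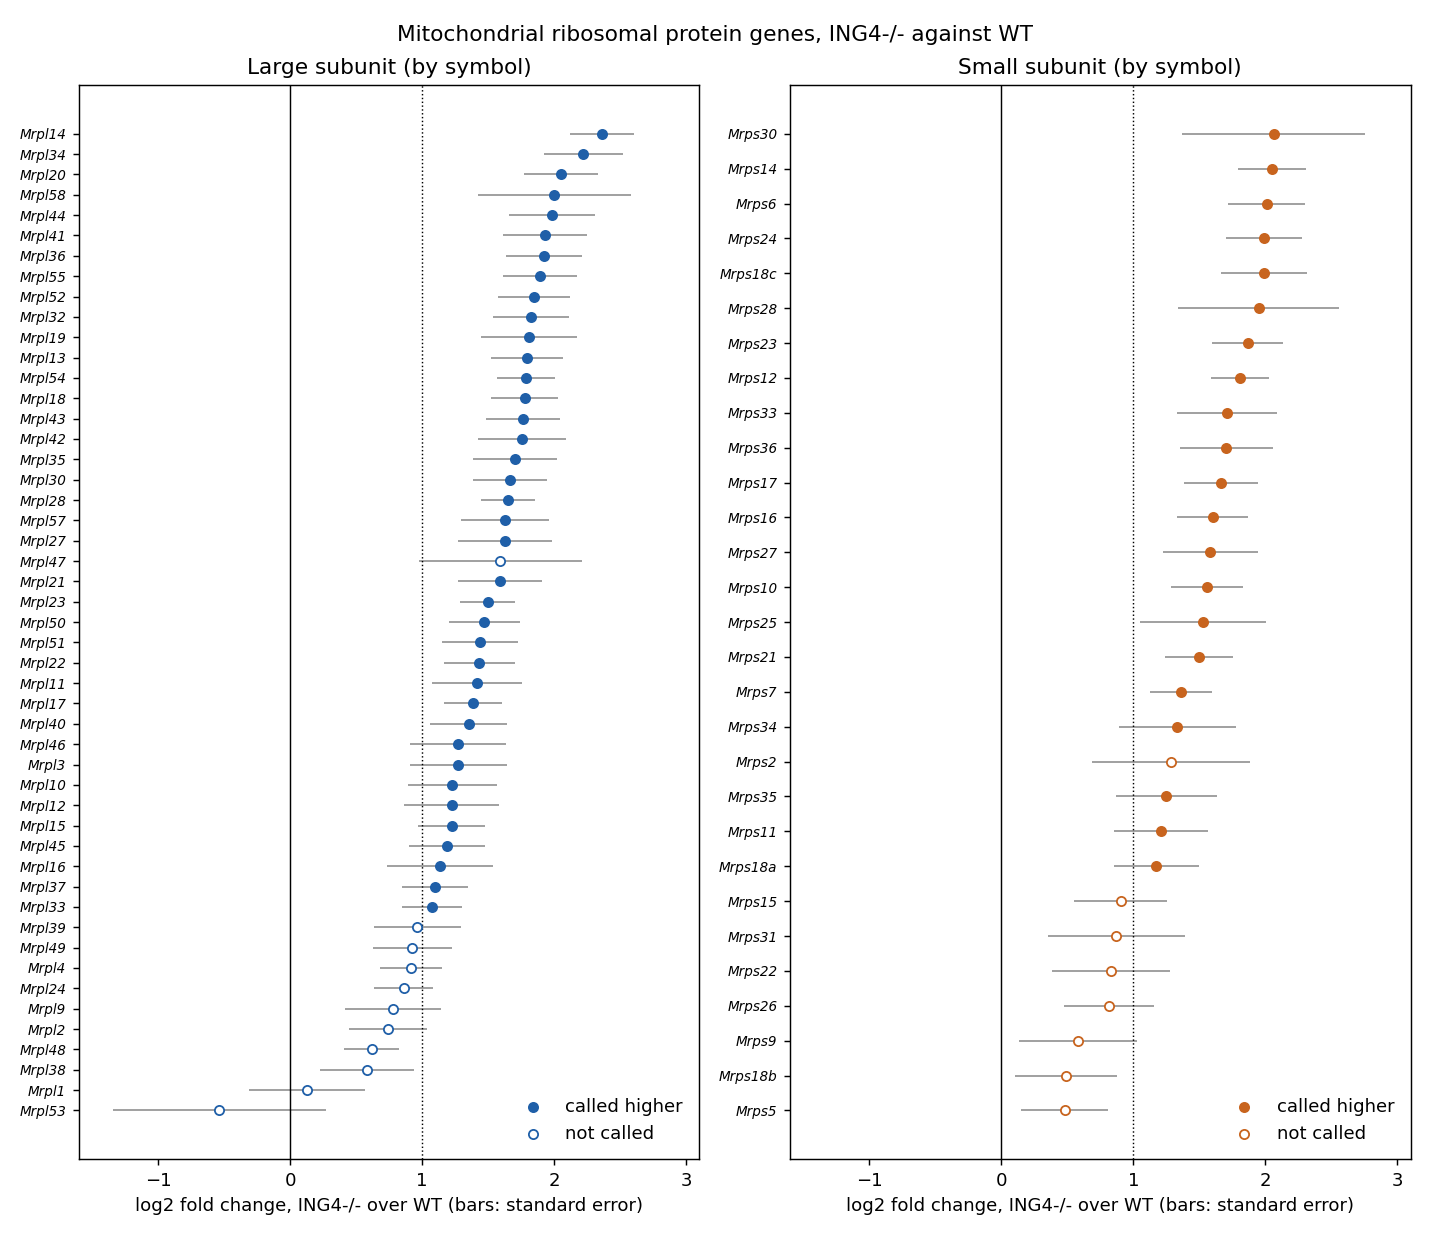
Log2 fold change of ING4-/- over WT for each Mrp gene, ordered within the large subunit (left) and the small subunit (right), with bars for the standard error and a dotted line at the call threshold of 1. Filled points are the 38 large-subunit and 21 small-subunit genes called higher, and open points the 11 and 8 that were not, from Mrpl53 at -0.54 up to Mrpl47 at 1.59.

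At the top of the large subunit stood Mrpl14, Mrpl34, Mrpl20, Mrpl58 and Mrpl44, in the plot of fold change by gene. Mrpl14, whose protein contacts the small subunit across the ribosome's interface, lies on chromosome 17 (chr17:45686322-45698495, GRCm38). It had 35.5, 34.2 and 28.9 CPM in WT and 176, 197 and 135 CPM in ING4-/- (log2 fold change 2.36, SE 0.25, edgeR, adjusted p = 0.000657). The lowest ING4-/- library was several times the highest WT library. Mrpl34, a short protein kept from the bacterial ribosome, had 23.9, 41.5 and 44.0 CPM in WT and 152, 192 and 166 CPM in ING4-/- (log2 fold change 2.22, SE 0.30). Mrpl20, an rRNA-binding protein of the large subunit core, rose by a log2 fold change of 2.05 (SE 0.28). Mrpl44, which carries a ribonuclease III-like fold, rose by 1.98 (SE 0.33) on the log2 scale.

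Mrpl58, also known as Ict1, is a peptidyl-tRNA hydrolase that frees stalled ribosomes. Its WT levels were uneven, at 6.63, 23.1 and 28.9 CPM in LT-HSCs, ST-HSCs and MPPs, against 78.7, 102 and 54.8 CPM in ING4-/- (log2 fold change 2.00, SE 0.58, edgeR, adjusted p = 0.0174). The groups did not overlap, but the log2 ratio fell from 3.55 in LT-HSCs to 0.92 in MPPs. The 63 WT LT-HSC counts lay below the 75.6 that the receptor-gene density corresponds to, so the ratio in LT-HSCs is uncertain. In the fit on genes with 10 counts or more in each library Mrpl58 was not called. After subtraction it was not called either (1.83, SE 1.36, edgeR, adjusted p = 0.335).

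In the small subunit the highest values belonged to Mrps30, Mrps14, Mrps6, Mrps24 and Mrps18c. Mrps14, a core protein of the head of the small subunit, had 46.2, 77.7 and 69.3 CPM in WT and 230, 296 and 275 CPM in ING4-/- (log2 fold change 2.05, SE 0.26, edgeR, adjusted p = 0.000657). Mrps6 had 15.1, 17.2 and 17.6 CPM in WT and 62.7, 65.9 and 72.2 CPM in ING4-/- (log2 fold change 2.01, SE 0.29). In both genes every ING4-/- value lay far above every WT value. Mrps24 and Mrps18c each reached a log2 fold change of 1.99 (SE 0.29 and 0.33). Another gene lies on the same strand over 15.1 to 23.2% of the exonic bases of Mrps6, Mrps24 and Mrps18c, so a part of their reads may be uncertain.

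Mrps30, whose protein is in fact of the large subunit, had low counts in WT. There were 26, 73 and 148 counts in WT and 958, 1546 and 865 in ING4-/- (log2 fold change 2.06, SE 0.70, edgeR, adjusted p = 0.0332). The receptor-gene density corresponded to 36.1, 36.5 and 29.2 of these WT counts, more than were counted in WT LT-HSCs. It was not called on genes with 10 counts or more in each library or after subtraction.

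The 3 forms of mitochondrial S18 are paralogs, of which Mrps18a is a large-subunit protein and Mrps18b and Mrps18c belong to the small subunit. Mrps18a had 37.9, 45.6 and 63.0 CPM in WT and 76.5, 135 and 119 CPM in ING4-/- (log2 fold change 1.17, SE 0.32, edgeR, adjusted p = 0.0142). Mrps18b had 23.9, 24.0 and 28.8 CPM in WT and 48.6, 31.7 and 27.5 CPM in ING4-/- (log2 fold change 0.49, SE 0.39, edgeR, adjusted p = 0.306). Mrps18c had 29.5, 33.4 and 29.0 CPM in WT and 80.4, 166 and 118 CPM in ING4-/- (log2 fold change 1.99, SE 0.33, edgeR, adjusted p = 0.00119). The WT levels of Mrps18b and Mrps18c were close, and every ING4-/- level of Mrps18c was above those of Mrps18b. On genes with 10 counts or more in each library Mrps18c alone of the 3 was called, at 1.47, with Mrps18a at 0.68 and Mrps18b at -0.0024. An antisense gene, Gm16279, lies across 30.5% of the exonic bases of Mrps18b.

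Of 19 genes listed for a described role, 14 (73.7%) were called higher, near the 75.6% of all 78, and 0 lower. On genes with 10 counts or more in each library 3 (15.8%) were called, Mrpl44, Mrps12 and Mrps18c. In that fit 39.0% of the Mrp genes and 8.30% of all genes were called higher. In the stalk that recruits translation factors, Mrpl10, Mrpl11 and Mrpl12 reached log2 fold changes of 1.23, 1.41 and 1.22 (SE 0.34, 0.34 and 0.36), and all 3 fell below the call without low-count genes. Mrps12, the protein of the decoding site, had 39.0, 44.1 and 38.4 CPM in WT and 132, 164 and 130 CPM in ING4-/- (log2 fold change 1.81, SE 0.22). It was called in both fits. Mrpl23 and Mrpl45, at the tunnel exit and the membrane contact, reached 1.5 (SE 0.21) and 1.19 (SE 0.29). Mrps27, a pentatricopeptide-repeat protein, reached 1.58 (SE 0.36), and Mrps7, a head protein of the small subunit, 1.36 (SE 0.24). Mrpl3, an rRNA-binding protein near the catalytic centre, reached 1.27 (SE 0.37). Mrps36, the dehydrogenase subunit, moved to a like extent (1.70, SE 0.35).

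The exceptions were the 19 genes not called higher, 11 of the large and 8 of the small subunit. For 5 of them (Mrpl4, Mrpl24, Mrpl39, Mrpl48 and Mrpl49) the adjusted p was under the threshold and the log2 fold change under 1, from 0.62 for Mrpl48 to 0.96 for Mrpl39. Mrpl4 stood at 0.91 (SE 0.23), Mrpl24 at 0.86 (SE 0.23) and Mrpl49 at 0.93 (SE 0.30). Mrpl48 was steady, with 62.0, 64.5 and 69.5 CPM in WT and 92.2, 100 and 108 CPM in ING4-/- (SE 0.21, edgeR, adjusted p = 0.0334). Its groups did not overlap, and the step was small. In the other 14 the adjusted p missed the threshold. Mrpl2, a protein of the peptidyl transferase region, had a log2 fold change of 0.74 (SE 0.30), Mrpl9 0.78 (SE 0.37), Mrpl38 0.58 (SE 0.36), Mrps15 0.90 (SE 0.35), Mrps22 0.83 (SE 0.45), Mrps26 0.82 (SE 0.34) and Mrps31 0.87 (SE 0.52). A missed threshold does not show that these genes were equal in both genotypes.

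The lowest value belonged to Mrpl53 on chromosome 6 (chr6:83109040-83109939, GRCm38). It had 15, 13 and 9 counts in WT and 58, 19 and 7 in ING4-/- (log2 fold change -0.54, SE 0.81, edgeR, adjusted p = 0.595). The groups overlapped, and the 3 WT counts lay below the 17.9, 18.1 and 14.5 that the receptor-gene density corresponds to. Another annotated gene, Gm42688, covers 88% of its exonic bases on the same strand, and how reads were assigned between them is not given, so the level of Mrpl53 is uncertain. Mrps34 and Mrps25 share 63.4% and 69.8% of their exonic bases with genes on the opposite strand. Mrps34 also shares 37% with genes on its own strand. The largest overlaps were with Mapk8ip3 and Nr2c2. Mrps34 and Mrps25 were called at 1.33 (SE 0.44) and 1.53 (SE 0.48), though neither was called on genes with 10 counts or more in each library.

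Mrpl1, which forms the mobile stalk where spent tRNA leaves, had 29.8, 32.8 and 24.9 CPM in WT and 17.6, 40.5 and 37.4 CPM in ING4-/- (log2 fold change 0.13, SE 0.44, edgeR, adjusted p = 0.825). It was lower than WT in LT-HSCs and higher in the other populations. Its direction was not stable, at -0.40 on genes with 10 counts or more in each library. Mrps5, part of the mRNA entrance, had 76.7, 50.3 and 67.7 CPM in WT and 101, 113 and 58.2 CPM in ING4-/- (log2 fold change 0.48, SE 0.33), and its value on genes with 10 counts or more in each library was -0.02. Mrps9 had 32.8, 30.1 and 27.2 CPM in WT and 27.4, 72.4 and 34.8 CPM in ING4-/- (0.58, SE 0.45). The excess of Mrps9 lay mainly in ST-HSCs.

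In Mrps2 and Mrps28 the ING4-/- LT-HSC library stood below the other ING4-/- libraries. Mrps2, a core protein of the small subunit, had 33.4, 32.6 and 40.5 CPM in WT and 24.2, 143 and 93.1 CPM in ING4-/- (log2 fold change 1.29, SE 0.60, edgeR, adjusted p = 0.097). Mrps28 had 21.5, 37.7 and 51.6 CPM in WT and 46.2, 230 and 152 CPM in ING4-/- (log2 fold change 1.95, SE 0.61, edgeR, adjusted p = 0.0247). Mrpl47 showed the reverse, with 8.11, 15.6 and 18.1 CPM in WT and 74.4, 21.4 and 30.3 CPM in ING4-/- (log2 fold change 1.59, SE 0.61, edgeR, adjusted p = 0.0543). The receptor-gene density corresponded to 69.6% of the WT counts of Mrpl47, and to 100 counts in WT LT-HSCs, where 77 were counted. For these 3 genes the range among the ING4-/- libraries exceeded the difference between the genotype means, and Mrps28 was not called on genes with 10 counts or more in each library.

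**Figure D3:**
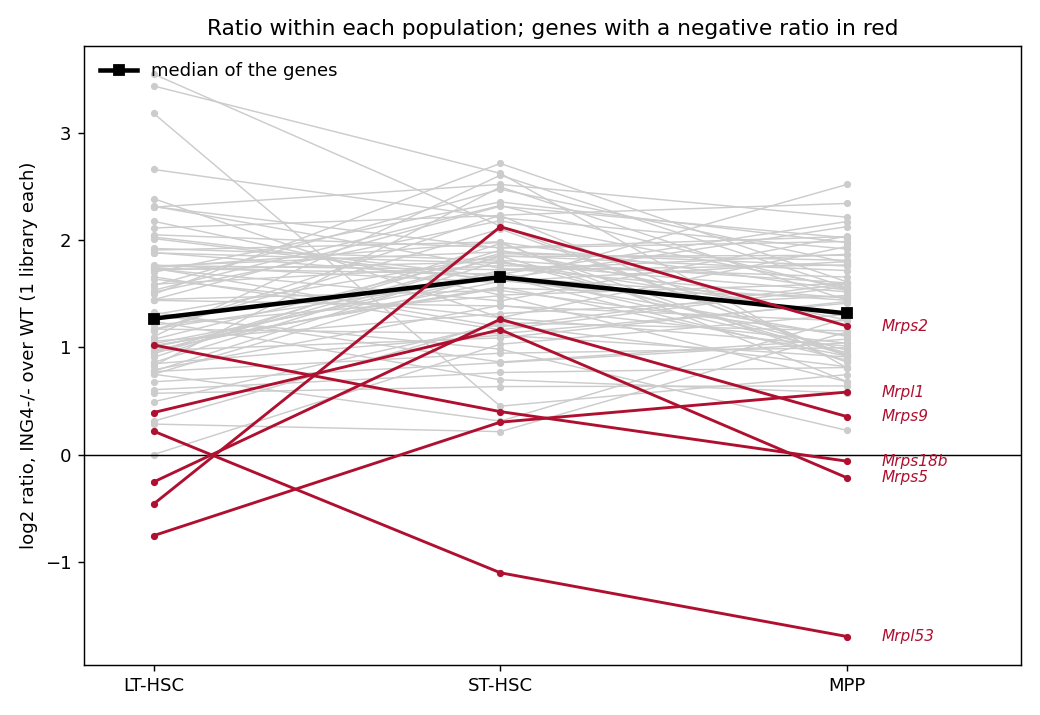
Log2 ratio of ING4-/- over WT within LT-HSCs, ST-HSCs and MPPs for each Mrp gene (lines, 1 library per genotype and population), with the median of the genes in black. The 6 genes with a negative ratio in at least 1 population are red and named, and the median stands at 1.27, 1.65 and 1.32.

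Within populations the median log2 ratios over the 78 genes were 1.27, 1.65 and 1.32, and 72 genes were above WT in all 3, as the plot of ratios within populations shows. Each ratio rests on 1 library per genotype, so the differences between populations carry no test. The other 6 genes were Mrpl1, Mrpl53, Mrps2, Mrps5, Mrps9 and Mrps18b.

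The second comparison asked whether the genes change along the sequence from LT-HSCs to MPPs, with genotype as a term. Neither MPPs nor ST-HSCs differed from LT-HSCs in any gene by edgeR's adjusted p at the 0.05 level (0 of 36170 genes called, 0%, for both, against 564 and 624 genes at an unadjusted p under 0.05), and 2 and 3 Mrp genes had an unadjusted p under 0.05. DESeq2 also called 0 Mrp genes between MPPs and LT-HSCs. Cd34, which the gates use to part MPPs from LT-HSCs, was not called either (log2 fold change 2.54, SE 0.19, edgeR, adjusted p = 0.684). The lack of calls therefore does not show that the populations were alike. Of the 9673 genes with 10 counts or more in each library 2 were called between these populations, neither of them an Mrp gene. The median log2 fold change of the Mrp genes was 0.25 in MPPs, with 53 of 78 positive, and 0.33 in ST-HSCs. Over all 36170 genes the medians were 0.094 and 0.11, with 53.8% and 54.7% of values positive. In WT the median log2 difference between MPPs and LT-HSCs was 0.25, with 50 of 78 genes higher in MPPs, and in ING4-/- it was 0.29, with 53 higher. ST-HSCs exceeded LT-HSCs by a median of 0.18 in WT (50 of 78 higher) and 0.42 in ING4-/- (64 of 78 higher).

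Gene length ran with the genotype difference. The 39 shorter genes, up to the median of 2068 exonic bases, stood at a median of 1.76 on the log2 scale (35 called), and the 39 longer ones at 1.25 (24 called). Across the 78 genes, which share the 6 libraries, the rank correlation of log2 fold change with exonic length was -0.434. With the share of WT counts that the receptor-gene density corresponds to, it was -0.341. After subtraction of that density the correlation with length was -0.0771. With the level per kb in ING4-/- it was 0.583, a level that also enters the fold change.

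**Figure D4:**
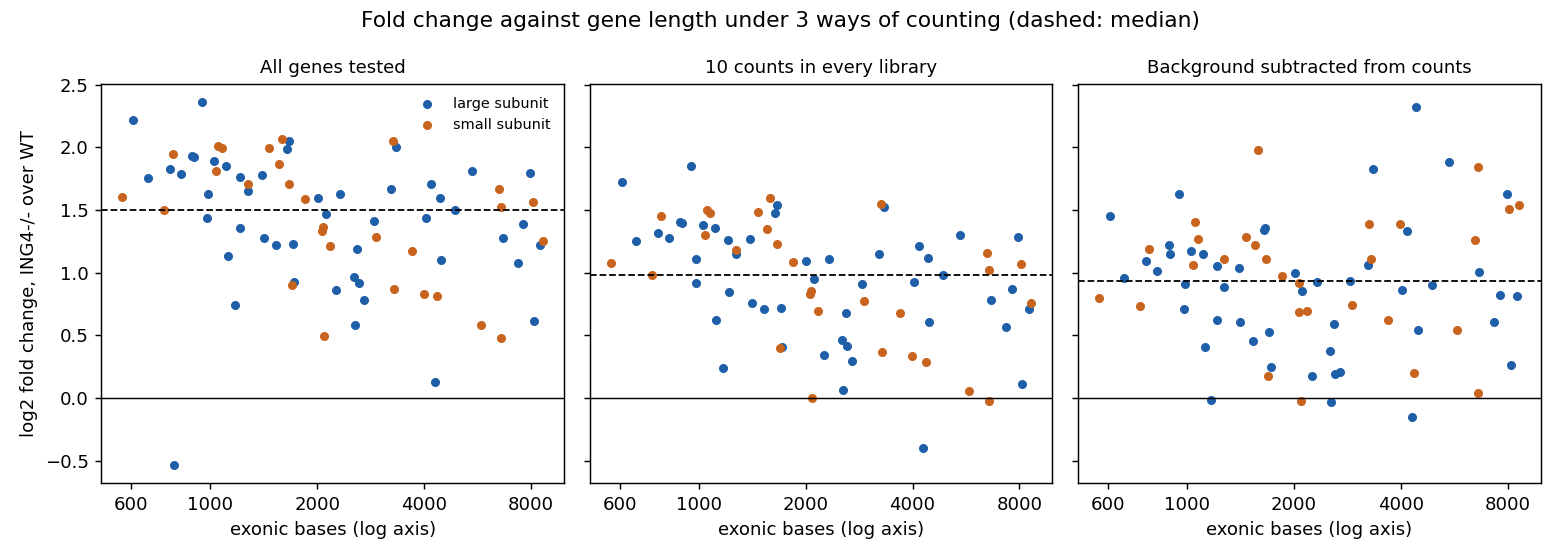
Log2 fold change of ING4-/- over WT against exonic length (log axis) for each Mrp gene with all genes tested (left), with 10 counts or more in each library (middle) and with the receptor-gene density subtracted (right), large-subunit genes in blue and small-subunit genes in orange. The dashed medians lie at 1.5, 0.98 and 0.93, and the rank correlation with length is -0.434 on the left and -0.0771 on the right.

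By level per kb, the most abundant large-subunit genes in ING4-/- were Mrpl42 (368 ± 94.3 CPM per kb, SD, n = 3), Mrpl34 (280 ± 33.7) and Mrpl36 (197 ± 47.4), against 109 ± 34.9, 60.0 ± 18.0 and 51.9 ± 11.1 in WT. Mrpl42 lay above Mrpl34 in each of the 6 libraries, by the least in ING4-/- LT-HSCs (261 against 250 CPM per kb). In the small subunit they were Mrps16 (247 ± 57.5), Mrps28 (182 ± 118) and Mrps21 (143 ± 21.0), against 81.6 ± 13.5, 47.2 ± 19.3 and 50.5 ± 8.05 in WT. The order of the last 2 lay within the spread of Mrps28. At the low end stood Mrpl53 (1.12 ± 1.09), Mrpl1 (7.41 ± 2.89) and Mrpl47 (9.51 ± 6.42) in the large subunit and Mrps22 (6.51 ± 1.21), Mrps9 (7.78 ± 4.19) and Mrps31 (7.95 ± 3.96) in the small. None of these 6 was called higher, and all 6 of the most abundant were. Level and fold change share the ING4-/- libraries.

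Other genes of mitochondrial translation were read from the same fit. Of 6 tested mitoribosomal proteins with other symbols 5 were called higher (against 7.98% of all genes), led by Chchd1 (log2 fold change 2.25, SE 0.41), Dap3 (1.56, SE 0.36) and Gadd45gip1 (1.53, SE 0.32). Ptcd3, a pentatricopeptide-repeat protein of the small subunit, was at 0.17 (SE 0.44). On genes with 10 counts or more in each library 3 of the 6 were called, and after subtraction 1. Among 27 assembly factors, which modify the rRNA or join proteins to it, 10 (37.0%) were called higher and 0 lower, where 7.98% of all genes tested were called higher and 56.7% lower. The highest were C1qbp (2.08, SE 0.23), Mpv17l2 (2.07, SE 0.31) and Mrm2 (1.85, SE 0.50), and the lowest Dhx30 (-0.40, SE 0.44), Nsun4 (-0.50, SE 0.87) and Gtpbp10 (-0.97, SE 0.36). On genes with 10 counts or more in each library 2 of 27 were called higher (7.41%, near the 8.30% of all genes), and Gtpbp10 was called lower, at -1.48, where 9.68% of all genes were.

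Of 15 translation factors 4 (26.7%) were called higher and 1 lower, where 7.98% and 56.7% of all genes tested were. Those called higher included the elongation factor Tsfm (log2 fold change 1.65, SE 0.50), the release factor Mtrf1 (1.53, SE 0.52) and the mRNA-binding protein Slirp (1.41, SE 0.24). Guf1, a ribosome-associated GTPase, was called lower (-2.27, SE 0.46, edgeR, adjusted p = 0.00312). It had 878, 540 and 581 counts in WT and 688, 285 and 411 in ING4-/-. The elongation factor Gfm1 was at -0.90 (SE 0.37) and the release factor Mtrf1l at -0.66 (SE 0.48). With 10 counts or more in each library 0 factors were called higher and 2 lower, Guf1 and Gfm1. Of all genes in that fit 8.30% were called higher and 9.68% lower.

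Of 12 mRNAs of the mitochondrial genome tested, 5 (41.7%) were called higher and 3 lower, against 7.98% and 56.7% of all genes tested. Those called higher included mt-Co1 (log2 fold change 1.82, SE 0.20), mt-Co2 (1.92, SE 0.46) and mt-Atp6 (2.33, SE 0.53), although the last 2 had at most 6 counts in each WT library. mt-Co3 (-2.35, SE 0.64), mt-Nd3 (-2.45, SE 0.56) and mt-Nd4l (-6.08, SE 1.49) were called lower. mt-Nd4l had 263, 173 and 94 counts in WT and 1, 1 and 25 in ING4-/-. On the 9 with 10 counts or more in each library 2 were called higher (mt-Co1 and mt-Cytb) and 3 lower (mt-Nd3, mt-Co3 and mt-Nd5, the last at -1.38). Of all genes in that fit 8.30% were called higher and 9.68% lower. With the length trend also removed 0 of the 9 were higher and 4 lower, against 4.65% and 4.67% of all genes. The mitochondrial rRNAs were not analysed here.

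**Figure D5:**
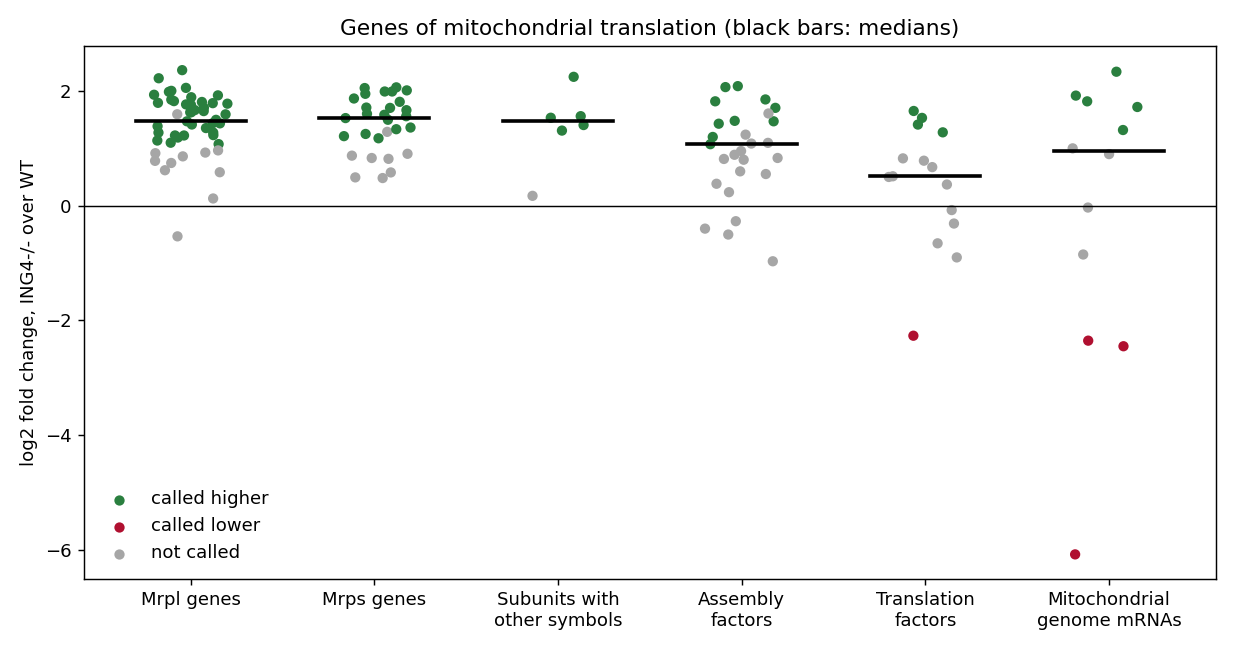
Log2 fold change of ING4-/- over WT for the Mrpl and Mrps genes and for other lists of mitochondrial translation (points, 1 per gene tested), green where called higher, red where called lower and grey where not called, with black bars at the medians. The medians are 1.47, 1.53, 1.47, 1.07, 0.51 and 0.95 from left to right, and red points occur for 1 translation factor and 3 mitochondrial mRNAs.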

How the data were processed

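Bulk RNA-seq of 6 libraries of sorted bone marrow cells was analysed, 1 for each genotype and population. The authors deposited raw counts of reads per gene, without normalization. The genome build mm10 comes from the submitters' processing notes, and the aligner, the counter and its strand setting are not given in the sources used here. Of 49315 gene identifiers 48970 were found in GENCODE of GRCm38, which gave symbols and gene types, and 44772 had the same start and end there. Positions and exon lengths came from the deposited counts. The genotypes were compared over all genes by the quasi-likelihood test of edgeR 4.0.16 in R 4.3.3, after TMM scaling and a low-count filter (filterByExpr, grouped by genotype), with Benjamini-Hochberg adjustment. An SE is the size of the log2 fold change over the root of the F statistic. A call needed an adjusted p below 0.05 and a log2 fold change above 1 in size. Populations were compared in the same way with genotype as a term. Ratios within a population used log2 CPM with a prior count of 2, with no test. Background density was the summed counts of 1700 receptor genes per kb of exon. Subtraction took this density times exon length from every count. DESeq2 1.42.0 was the other count test. Promoter windows came from RefSeq (GRCm38.p6), and figures were drawn in Python 3.11.15 with matplotlib 3.10.9.

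Depth bounds the precision through 7839326 to 9363442 counts in WT and 35596876 to 39192588 in ING4-/-. The WT and ING4-/- libraries of a population shared deviations from the mean of their genotype (r = 0.143, 0.110 and 0.121 over 9673 genes, in the order LT-HSC, ST-HSC, MPP), so the populations, which share their gate, pair the libraries. No libraries within a genotype were duplicates, since chi-square per degree of freedom was 15.4 or more for each pair. The fits were tested on simulated counts. The genes and lists were chosen with earlier results of these data known. Named with values were the 5 highest and 5 lowest log2 fold changes of each subunit, every gene not called higher, those with another gene on over 50% of their exonic bases, the 3 highest and 3 lowest levels per kb of each subunit, a list of genes with described roles, and the 3 highest and 3 lowest and every lower call of the other lists. Mrpl22, Mrpl46 and Mrps11 (for their gene starts) and Mrpl13, Mrpl35, Mrps10 and Mrps17 (for their calls under the alternatives) were named after their values were seen. Alternatives were other normalizations, filters and thresholds, DESeq2, population as a block, leaving out libraries, removing a trend on gene length, subtraction, thinning to equal depth and protein-coding genes only. The 10-count minimum combined with the length trend or with subtraction was chosen after seeing the data. The result of 1 further marker list is not reported here.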

Additional observations from a re-analysis of the deposited data

Results flagged for a closer look

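In 6 genes the ING4-/- library lay on the other side of WT in 1 population than in the other populations. With 1 library per genotype and population these differences were not tested. The log2 ratio of ING4-/- over WT was -0.76 in LT-HSCs for Mrpl1, -0.46 in LT-HSCs for Mrps2 and -0.26 in LT-HSCs for Mrps9, each positive in ST-HSCs and MPPs. It was -0.22 in MPPs for Mrps5 and -0.062 in MPPs for Mrps18b, both positive in LT-HSCs and ST-HSCs. For Mrpl53 it was 0.22 in LT-HSCs and negative in ST-HSCs and MPPs, at counts of 7 to 58 in every ING4-/- library.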

How the results depend on the processing

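No Mrp gene was called lower in ING4-/- in any alternative fitted, and the median log2 fold change stayed positive in each of them. Population as a block, which pairs the libraries, gave 56 genes called higher (38 large-subunit and 18 small-subunit) at a median of 1.47, and it changed no count by over 1.5 times. A minimum of 10 counts in each library left 30 called (20 and 10), at medians of 0.98 for all, 0.97 for the large and 1.02 for the small subunit. With the length trend also removed 13 were called (9 and 4), at 0.57, 0.60 and 0.53. Background subtraction gave 24 (16 and 8), at 0.93, 0.90 and 1.10, and with the 10-count minimum as well 9 (5 and 4), at 0.82, 0.80 and 0.96. Mrpl13, Mrpl14, Mrpl35, Mrps10, Mrps14 and Mrps17 were called with all genes, with the 10-count minimum, with that minimum and the length trend removed, and after subtraction. DESeq2 size factors gave 42 called at medians of 1.13, 1.09 and 1.16, DESeq2 45 at 1.15, 1.11 and 1.18, protein-coding genes alone 43 at 1.15, 1.12 and 1.18, and upper-quartile normalization 75 at 2.09, 2.06 and 2.13, where 14.7% of all genes were called higher. Of all genes, 6.45% were called higher with the block, 4.33% with DESeq2 size factors, 3.50% in DESeq2 and 6.18% among protein-coding genes alone. The share was 8.30% with the 10-count minimum, and 4.65% with the length trend also removed. It was 5.64% after subtraction, and 3.98% after subtraction with the minimum. Thinning to equal depth moved the large-subunit median of the Mrp genes to 1.25. With the length trend removed over all genes tested, whose median moved from -6.85 to -3.81, the medians were 4.83, 4.83 and 4.82 and all 78 were called, where 30.7% of all genes were called higher. Leaving out libraries gave 39 to 65 called genes (26 to 41 large-subunit and 12 to 24 small-subunit) at medians of 1.31 to 1.59, 1.31 to 1.55 and 1.33 to 1.64. The lowest counts, 39 and 12, came without both ST-HSC libraries, where 4.89% of all genes were called higher.

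For MPPs against LT-HSCs the median of the Mrp genes, 0.25, was 0.095 with DESeq2 size factors, 0.14 with the upper quartile, 0.094 in DESeq2 and 0.12 with the 10-count minimum, and 0.14 to 0.31 without single libraries, and 0 genes were called in each. Among genes named in the text, Mrpl1 turned negative with DESeq2 size factors (-0.26), DESeq2 (-0.24), the 10-count minimum (-0.40, and -0.37 with the length trend removed), subtraction (-0.15, and -0.26 with the minimum), thinning (-0.12), protein-coding genes only (-0.23) and without ING4-/- ST-HSCs (-0.060), WT MPPs (-0.13) or both MPP libraries (-0.29). Without other libraries it ran up to 0.47. Mrps18b turned negative with the minimum (-0.0024), subtraction (-0.028) and both combinations (-0.48 with the length trend, -0.11 with subtraction). Mrps5 did with the minimum (-0.024) and with subtraction and the minimum (-0.060). Mrpl2 and Mrpl38 did with subtraction (-0.013 and -0.036), with subtraction and the minimum (-0.10 and -0.14) and with the minimum and length trend (-0.50 and -0.30). The last setting also turned Mrpl9 (-0.026), Mrpl24 (-0.088), Mrpl49 (-0.18) and Mrps15 (-0.20). Mrpl53 turned positive with the upper quartile (0.065) and the length trend (3.49). Over the 47 Mrp genes that the naming rule gave, 746 values kept their direction and side of the threshold, 153 lost the threshold, 52 gained it and 29 turned. The cause of these changes was not tested. Depth limits WT most, where 26 counts stand behind Mrps30 in LT-HSCs.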
